A study of Mus musculus with 12 samples.

Results

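Whole lungs of aged and young mice that had all received an antibody against PD-1 were compared gene by gene. The comparison rests on 6 of the 12 libraries of the series, chosen by the labels for age and treatment alone: 3 from C57BL/6J mice of 22 months given anti-PD-1 and no other antibody, and 3 from C57BL/6J mice of 2 months given anti-PD-1. Every mouse of the series carried the melanoma line MO4 under the skin, so the lung is not the tumour site, and anti-PD-1 or control antibody was injected into the peritoneum on days 3, 7 and 11 after the tumour cells. The other 6 libraries came from 22-month mice given a rat control antibody (aged control) or anti-PD-1 with an antibody to the IL-21 receptor (combination), and they enter here through the estimate of the spread and as side-by-side levels. There were no young mice without anti-PD-1, so the difference described is one of age under treatment, in which age and any effect of age on the response cannot be told apart. Whether the 3 libraries of a group stand for 3 mice is not in the labels, and the p-values below describe the spread from library to library, which may be technical.

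The lung exchanges gas across a thin wall made of alveolar epithelium, a shared basement membrane and capillary endothelium, with airways lined by secretory and ciliated cells, vessels wrapped in pericytes and smooth muscle, and an outer layer of mesothelium. Type 2 alveolar cells make surfactant, a lipid film that needs a steady supply of fatty acids, phospholipid and cholesterol, and they give rise to the flat type 1 cells. PD-1 is a receptor that restrains activated T cells, and antibodies that block it are given against melanoma. In RNA from whole tissue, fewer cells of a type and less RNA per cell cannot be told apart.

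Totals of the 6 libraries lay between 18355975 and 22058620 counts, and 18556 of the 49585 genes in the table passed the filter on low counts. Lung markers were present in all of them: the summed level of the 10 identity genes was 44560 to 57140 CPM (read counts scaled to a common library total) in young and 29530 to 34250 CPM in aged libraries. The Y-linked genes Ddx3y and Eif2s3y were expressed at 76.3 ± 1.85 and 65.9 ± 4.38 CPM in young and 79.3 ± 2.23 and 64.6 ± 2.54 CPM in aged lungs, so all 6 libraries hold male RNA. Of the pigment cell genes Tyr had 0 counts in all 6 libraries, Oca2 and Slc45a2 had at most 1, and Pmel and Mlana were not called. The third young library had the most counts of 3 of them: 14 of Tyrp1 against 0 or 1 in the other 5, 15 of Dct against 1 to 3, and 104 of Pmel against 51 to 71. The part of these cells in the results was not tested. Mitochondrially encoded RNA took 7.22%, 6.05% and 7.01% of the counts in the young and 7.88%, 8.31% and 11.9% in the aged libraries. The third aged library stood apart in genes of pancreatic digestive enzymes, which were picked after their values were seen: Cpb1 was at 1.09, 0.955 and 71.6 CPM in the 3 aged libraries, Pnliprp1 at 0.378, 0.704 and 43.7 CPM and Ctrl at 0.924, 0.553 and 39.9 CPM, against at most 0.867 CPM in any young one. The elastase gene Cela1, which the naming rule takes, was also highest there (5.0, 6.08 and 103 CPM in aged, 1.37, 2.1 and 2.6 CPM in young libraries). Unlike Cpb1, it was also above the young level in aged control (7.75 ± 1.26 CPM) and combination lungs (6.58 ± 2.29 CPM, SD, n = 3). Its call (edgeR adjusted p 0.0422) held without the third aged library. It did not hold when 1 young library was left out, whichever it was (edgeR adjusted p up to 0.127). Clock genes also moved with the groups. A score of 11 of them (mean log2 CPM of Arntl, Clock and Npas2 minus that of 8 repressor and output genes) was -0.847, -0.556 and -0.796 in young, -1.49, -3.45 and -2.54 in aged anti-PD-1 and between -1.03 and -1.58 in the other aged libraries, and its part in the results below was not tested beyond a fit with the score as a covariate. That fit, in which the score takes up part of the difference between groups that it does not overlap, called 52 genes, 47 higher and 5 lower. Of the 122 called genes named in the text, 16 were still called in it: Acot7, Bex4, Cd209b, F13a1, F5, Fermt3, H1f0, Id1, Itga6, Lyz1, Mfsd2b, Mmrn1, Pla2g2d, Rgs5, Slc25a37 and Ubd.

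Many genes differed between the ages. A gene is called where its adjusted p was under 0.05 in an edgeR quasi-likelihood test over all genes tested with Benjamini-Hochberg adjustment, and fold changes are log2 values ± SE, aged minus young, with 3 libraries a group. By this rule 2830 genes, 15.3% of those tested, were called: 1502 (8.09%) were higher and 1328 (7.16%) lower in aged lungs. The median log2 fold change over all genes tested was -0.00693, which is the level to set against the medians of gene lists below. An unadjusted edgeR p under 0.05 was found for 5478 of the 18556 genes tested, the share to set against such counts below. Large changes were more often upward: 522 genes (2.81% of those tested) rose and 312 (1.68%) fell at least 2-fold. Of the calls past 3 on the log2 scale, 70 were higher and 5 lower. Immunoglobulin genes were among those that rose: 66 of 120 variable genes (median log2 fold change 2.31) and all 11 constant genes (median 3.34) were called higher, and none of either lower. The calls rest on few libraries: 1160 genes were called without the third young, 1252 without the third aged and 1404 without the second young library, with the same sign for every call shared with the full fit. These fits share most libraries with the full fit, so the signs could hardly differ. In 7351 genes (39.6% of those tested) the 3 aged and 3 young CPM values did not overlap, with the aged values above in 3661 (19.7%) and below in 3690 (19.9%), so a lack of overlap by itself was common. Protein-coding genes were called in 16.5% of cases (15089 tested), lincRNAs in 10% (589), antisense transcripts in 7.32% (1024) and processed pseudogenes in 4.78% (628).

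**Figure D1:**
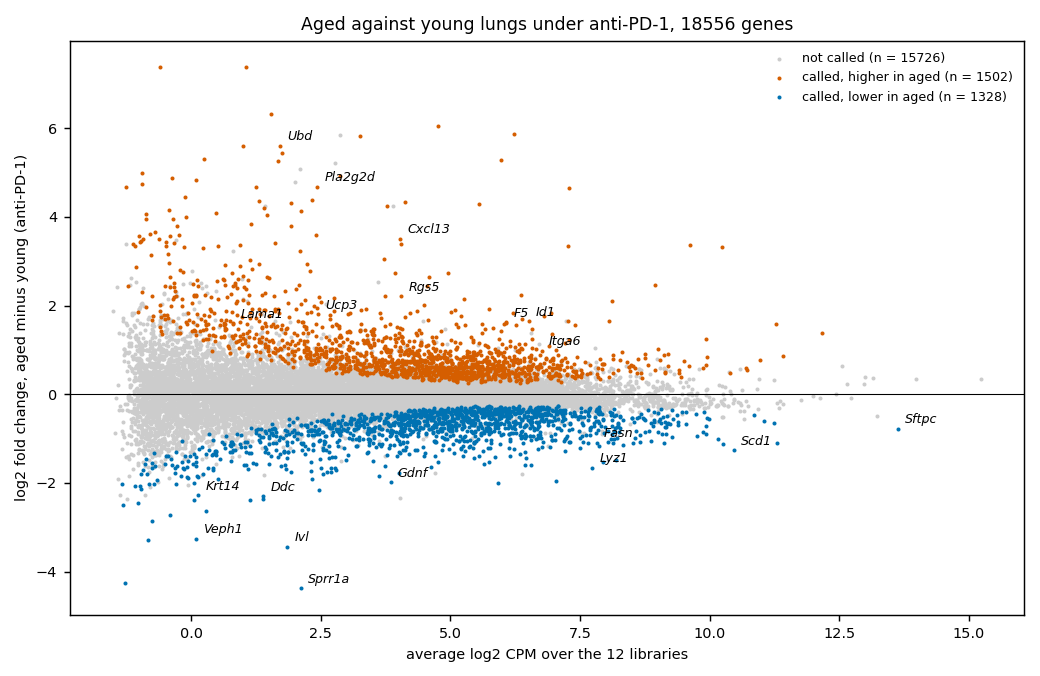
Fold change of each gene tested. The x axis is the average log2 CPM over the 12 libraries, the y axis the log2 fold change of aged minus young lungs under anti-PD-1, and each point is 1 of the 18556 genes tested; 1502 called genes lie above 0 and 1328 below it, with the longest tail upward at low levels and Sprr1a among the lowest points.

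**Figure D2:**
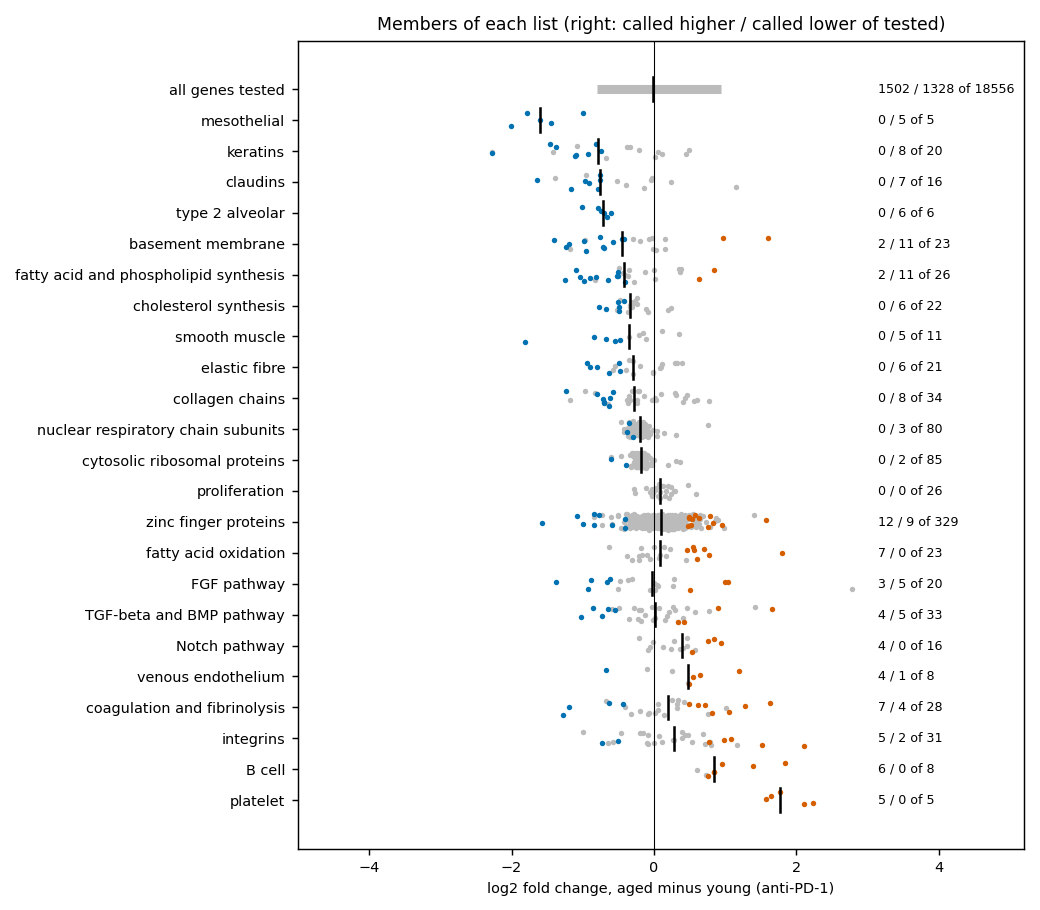
Fold change of the members of 23 gene lists. The x axis is the log2 fold change of aged minus young lungs, each point is a tested gene (orange called higher, blue called lower, grey not called), the black tick is the list's median, the grey bar of the top row spans the 5th to 95th percentile of all genes, and the counts at the right give calls higher and lower of the genes tested; mesothelial genes have the lowest median (-1.60) and platelet genes the highest (1.77) of the lists drawn.

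Rgs5 led the comparison. It encodes a brake on G protein signalling that marks pericytes, the contractile cells around capillaries, and lies on chromosome 1, 169655501 to 169695813 (mm10). Its level was 6.03, 6.35 and 5.88 CPM in the young and 29.1, 27.4 and 28.1 CPM in the aged libraries, a rise of 2.21 ± 0.16 with an edgeR adjusted p of 1.8e-05. The 3 values within each group lie close together, with a wide gap between the groups. Aged control lungs stood between the groups at 14.5 ± 3.27 CPM (SD, n = 3) and the combination group at 17.2 ± 1.46 CPM. Omitting any 1 of the 6 libraries left Rgs5 called (highest edgeR adjusted p 0.00042). With the clock score as a covariate its log2 fold change was 2.25 (edgeR adjusted p 0.00243).

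Other genes that rose with small p-values are known from immune cells or vessels. Itga6, a subunit of laminin-binding integrins, was at 73.3, 77.3 and 72.8 CPM in young and 150.3, 146 and 146 CPM in aged libraries (log2 fold change 0.98 ± 0.10). Pla2g2d, a secreted phospholipase A2, went from 0.411, 0.20 and 0.49 to 11.6, 6.13 and 11.1 CPM (log2 fold change 4.68 ± 0.45). For Ubd, a ubiquitin-like modifier induced by inflammation, the values were 0.183, 0.050 and 0.196 CPM in young and 4.07, 5.28 and 12.7 CPM in aged libraries, the third of which was the highest. Il4i1, an amino acid oxidase secreted by immune cells, rose by 1.4 ± 0.16, the scavenging nuclease gene Dnase1l3 by 2.93 ± 0.41, the lectin gene Cd209b by 2.81 ± 0.36 and the chemokine gene Ccl8 by 3.38 ± 0.56. In all 4 of these genes the young values lay below the aged ones. Each of the 8 genes of this and the preceding paragraph was called in every fit that left out a library. Markers of lymphocytes moved the same way: 6 of 8 B cell genes (median log2 fold change 0.84) and 3 of 6 T cell genes (0.86) were called higher, counts of 3 to 4 for B cells whichever library was left out and of 0 for T cells when leaving out the second or the third young or the third aged one. B cell genes had summed levels of 403.7 to 433 CPM in aged against 200.6 to 241.9 CPM in young libraries. For T cells the sums overlapped, at 45.65 to 115.6 CPM against 39.13 to 54.55 CPM. Their part in the rise of the immune genes was not tested.

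The steepest falls among the named genes were in 2 genes of the cornified envelope, the cross-linked protein shell of squamous epithelium. Sprr1a, a small proline-rich envelope protein, was at 7.3, 6.71 and 17.4 CPM in young and 0.756, 0.201 and 0.499 CPM in aged libraries and fell by 4.38 ± 0.47 (edgeR adjusted p 0.000311). Ivl, involucrin, was at 3.97, 5.1 and 12 CPM and 0.63, 0.0503 and 1.25 CPM and fell by 3.44 ± 0.60 (edgeR adjusted p 0.00362). The third young library was the highest for both, and the lowest young value still lay above the highest aged one. Fosl1, a subunit of the AP-1 transcription factor that is active in squamous and injured epithelium, fell by 1.85 ± 0.30, from 12.6, 11.2 and 15.6 CPM to 5.12, 3.47 and 2.19 CPM. Aged control lungs had 19.5 ± 6.21 CPM of Fosl1 and combination lungs 12.6 ± 2.02 CPM (SD, n = 3), not below the young range. Sprr1a was at 3.13 ± 0.752 CPM in aged control and 2.73 ± 0.736 CPM in combination lungs. Ivl was at 3.03 ± 1.0 and 3.34 ± 0.797 CPM. These means of Sprr1a and Ivl lay below every young value. The keratin gene Krt14 fell by 2.27 ± 0.42, and Sbsn, suprabasin, by 1.8 ± 0.39. Unlike Sprr1a and Ivl, both had their lowest young value in the third young library. Krt14 was at 1.6, 2.2 and 1.08 CPM and Sbsn at 11.7, 10.7 and 5.73 CPM in the young libraries. Of 7 tested squamous and basal epithelial genes 3 were called lower and 0 higher (median log2 fold change -0.68), a count of 3 whichever library was left out, while Krt5 (-0.68 ± 0.59, edgeR adjusted p 0.488) and Krt15 (-0.38 ± 0.71, edgeR adjusted p 0.769) were not called.

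Sprr1a, Ivl and Fosl1 were all lower in aged than in young anti-PD-1 lungs, though not alike in the other aged groups. The bases before the start of the first 2 are shown, with matches to the AP-1 motif TGANTCA on either strand in capitals. Both come from RefSeq promoter windows (GRCm38.p6, minus strand of chromosome 3), limited to bases outside the gene as the count table places it. Sprr1a, chr3:92485896-92486131, holds 2 matches that begin 146 and 116 bases before the RefSeq start, and Ivl, chr3:92573736-92573985, holds 1 that begins 116 bases before it.
Sprr1a: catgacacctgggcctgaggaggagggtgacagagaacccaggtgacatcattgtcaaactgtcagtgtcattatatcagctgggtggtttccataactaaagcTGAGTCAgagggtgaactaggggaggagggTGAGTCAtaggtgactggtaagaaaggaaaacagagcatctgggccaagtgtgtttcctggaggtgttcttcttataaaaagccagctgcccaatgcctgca
Ivl: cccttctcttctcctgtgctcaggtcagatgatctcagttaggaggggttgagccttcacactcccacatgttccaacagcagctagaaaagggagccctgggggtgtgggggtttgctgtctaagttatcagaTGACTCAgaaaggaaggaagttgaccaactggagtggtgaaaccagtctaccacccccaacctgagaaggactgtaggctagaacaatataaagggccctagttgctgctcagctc
The same letters occur in 6.75% of all 32851 RefSeq windows of 250 bases. Among genes with a window they occur in 6.96% of those called higher and 6.56% of those called lower, against 4.78% of the 12339 tested. A match is a description of the sequence and not evidence that AP-1 binds there.

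Epithelial junction and filament genes fell as well. Of 20 keratin genes 8 were called lower and 0 higher (median log2 fold change -0.78), a count of 4 without the third young or the third aged library. Krt8, the keratin of simple epithelium, was at 376, 385 and 724 CPM in young and 282, 214 and 192 CPM in aged libraries and fell by 1.11 ± 0.22, and its partner Krt18 fell by 1.1 ± 0.22. Both genes were highest in the third young library, and the groups did not overlap. Aged control lungs had 455 ± 46.2 CPM of Krt8 and 349 ± 34.4 CPM of Krt18 (SD, n = 3). Combination lungs had 293 ± 16.8 and 230 ± 30.3 CPM. Of 16 claudin genes, which seal the space between epithelial cells, 7 were lower and 0 higher (median -0.76), a count of 2 without the third aged and 3 without the second aged or the third young library. Cldn3 fell by 0.76 ± 0.15 and Cldn10 by 0.76 ± 0.17, and the alveolar claudin Cldn18 by 0.97 ± 0.24, the last a call lost without the third young or the third aged library (highest edgeR adjusted p 0.0818). The endothelial claudin Cldn5 did not pass the test (-0.05 ± 0.26, edgeR adjusted p 0.928).

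Lyz1, the lysozyme of type 2 alveolar cells, was at 415, 393 and 430.1 CPM in young and 138, 131 and 125 CPM in aged libraries and fell by 1.65 ± 0.18 (edgeR adjusted p 0.000311). Aged control lungs had 164 ± 2.18 CPM (SD, n = 3), below every young value. Reads of Lyz1 can be shared with its close copy Lyz2, and the counting may split them. All 6 type 2 markers were called lower (median -0.72), at least 4 of them whichever library was left out, and their summed level was 14360 to 15730 CPM in aged against 21920 to 26970 CPM in young libraries. All 5 mesothelial markers fell too (median -1.60). Among those, mesothelin (Msln) fell by 1.6 ± 0.20 and the uroplakin gene Upk3b by 2.01 ± 0.34, and 3 were called without the third aged library. Mesothelial sums were 83.08 to 118.1 CPM in aged anti-PD-1, 210.8 to 354.5 CPM in young and 206.5 to 348.1 CPM in aged control lungs. Msln and Upk3b, like Sbsn and Krt14, had their lowest young value in the third young library (93.9 and 62.5 CPM). How far the shifts in type 2 and mesothelial markers carry the falls of Sbsn, keratins, claudins and the matrix and lipid genes below was not tested.

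Basement membrane genes fell in aged lungs. Of 23 tested members 11 were called lower and 2 higher, with a median log2 fold change of -0.45 that stayed between -0.53 and -0.35 whichever library was left out. The count of lower calls was far less stable: 2 without the third young or the third aged library, 4 without the second young and 6 without the second aged library. Col4a5, a collagen IV chain of the alveolar basement membrane, was at 116, 137 and 149 CPM in young and 73, 60.1 and 37.8 CPM in aged libraries and fell by 1.23 ± 0.26 (edgeR adjusted p 0.00937). All aged values lay below all young ones, and Col4a5 was called in every fit that left out a library. Lamb3, a chain of the laminin that anchors epithelium, was at 111, 125 and 143 CPM and 78, 60.5 and 57 CPM and fell by 0.95 ± 0.22, a call lost without the third young or the third aged library (highest edgeR adjusted p 0.0677). Col4a3 (-1.17 ± 0.38, edgeR adjusted p 0.0636) and Col4a4 (-0.97 ± 0.31, edgeR adjusted p 0.0534), which encode partners of Col4a5, did not pass the test. Lamc3, a laminin gamma chain, rose by 0.98 ± 0.21. Aged control lungs had 68.7 ± 18.7 CPM of Lamb3 and 59.7 ± 14.3 CPM of Col4a5 (SD, n = 3), close to the aged anti-PD-1 values. Fras1, which encodes a matrix protein of epithelial basement membranes outside the list, fell by 2.15 ± 0.42.

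Smaller shares of the other matrix lists were called. Of 34 collagen chains 8 were lower and 0 higher (median -0.28), a count of 3 without the third aged and 11 without the first aged library. The beaded filament chains Col6a1 and Col6a2 fell by 0.64 ± 0.12 and 0.62 ± 0.13 and were called whichever library was left out. The major fibrillar chains Col1a2 (-0.31 ± 0.20, edgeR adjusted p 0.319) and Col3a1 (-0.83 ± 0.32, edgeR adjusted p 0.106) did not pass the test. In the list of fibrillar collagen and its processing 6 of 24 were lower and 1 higher (median -0.28, lower count 1 without the third aged library): the hydroxylase complex member P3h4 fell by 0.61 ± 0.12, while Fkbp14, a prolyl isomerase that helps collagen fold, rose by 0.67 ± 0.13. Elastic fibre genes were lower in 6 of 21 cases and higher in 0 (median -0.29, lower count 2 without the third young or the third aged and 8 without the first aged library). Among them Ltbp3, which stores latent TGF-beta on fibres, fell by 0.79 ± 0.17, and Fbln5, needed for elastin assembly, fell by 0.94 ± 0.21, a call lost without the third young library (edgeR adjusted p 0.0563). None of 10 small leucine-rich proteoglycan genes was called by edgeR with all 12 libraries, DESeq2 or limma-voom (median -0.22). At most 1 was called, as lower, when a library was left out. An unadjusted edgeR p under 0.05 was found for 2 of them, both lower, a smaller share than over all genes tested. Matrix proteases and inhibitors had 4 of 22 higher and 2 lower (median 0.11, at most 1 lower in each fit that left out a library). The macrophage elastase Mmp12 was at 7.35, 5.85 and 5.49 CPM in young and 16.5, 16.2 and 21.1 CPM in aged libraries, and Mmp19 rose by 0.96 ± 0.19.

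**Figure D3:**
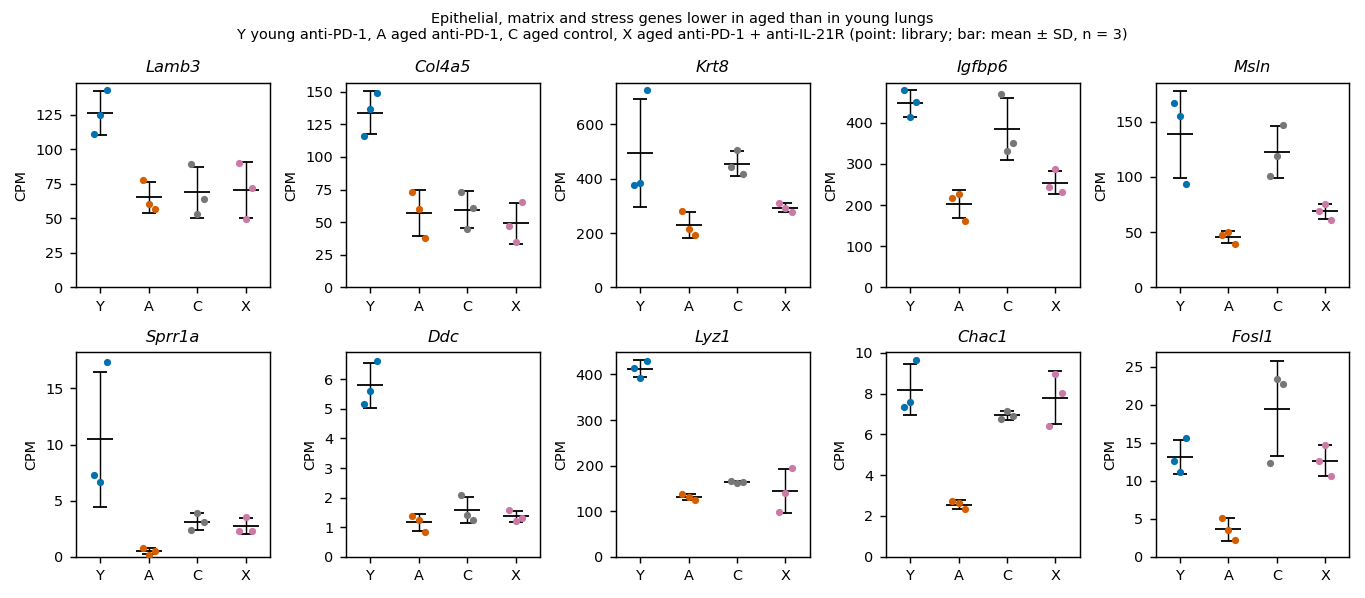
Levels of 10 genes that were lower in aged than in young lungs under anti-PD-1. Each panel gives CPM (y axis, from 0) of 1 gene in the 4 groups (x axis), points are libraries and bars the mean ± SD of 3; in every panel the aged anti-PD-1 points lie below the young ones, and for Lamb3, Col4a5, Ddc and Lyz1 the aged control and combination means lie closer to the aged anti-PD-1 mean, while for Chac1 and Fosl1 they lie closer to the young mean.

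Genes of lipid synthesis were lower in aged lungs. Of 26 tested genes of fatty acid and phospholipid synthesis 11 were called lower and 2 higher (median log2 fold change -0.43), and 6 to 11 were called lower when 1 library was left out, the fewest when the second or the third young one was omitted. Scd1, the desaturase that makes monounsaturated fatty acids, was at 2017, 2827 and 2760 CPM in young and 1187, 897 and 1099 CPM in aged libraries and fell by 1.26 ± 0.20 (edgeR adjusted p 0.00161). Fasn, fatty acid synthase, was at 314, 424 and 413 CPM and 216, 161 and 161 CPM and fell by 1.1 ± 0.17 (edgeR adjusted p 0.00143). Acaca, the carboxylase of the committed step, fell by 0.81 ± 0.14, and Fabp5, a fatty acid carrier, by 0.98 ± 0.14. None of these 4 genes overlapped between the groups, and each was called in every fit that left out a library. Aged control lungs had 961 ± 218 CPM of Scd1 and 174 ± 28.3 CPM of Fasn (SD, n = 3). Acot7, an acyl-CoA thioesterase outside the list, fell by 1.1 ± 0.11, from 109, 131 and 124 CPM to 56.6, 59.7 and 53.4 CPM. The elongase genes Elovl1 (-0.28 ± 0.15, edgeR adjusted p 0.231) and Elovl5 (0.01 ± 0.13, edgeR adjusted p 0.985) did not pass the test.

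Fewer cholesterol synthesis genes were called. Of 22 tested, 6 were lower and 0 higher (median -0.33, between -0.38 and -0.28 whichever library was left out), but only 1 was called without the third young or the third aged, 2 without the second young and 3 without the second aged library. Insig1, the sterol sensor of the endoplasmic reticulum, was at 79.6, 106 and 111 CPM in young and 61.6, 63 and 60.4 CPM in aged libraries and fell by 0.68 ± 0.13, the 1 call of this list that held without each library in turn. Fdft1, squalene synthase, fell by 0.43 ± 0.09, a call lost without the third young or the third aged library (highest edgeR adjusted p 0.0583). Hmgcs1 (-0.36 ± 0.12, edgeR adjusted p 0.0597) and the transcription factor gene Srebf2 (-0.32 ± 0.11, edgeR adjusted p 0.0736) were not called.

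Promoters of sterol and fatty acid genes are known for a CCAAT box beside the element of the SREBP factors, and it is shown in capitals, on either strand, for Insig1 and Fasn (RefSeq, GRCm38.p6, bases outside the gene in the count table). Insig1, plus strand of chr5:28071162-28071362, holds 1 match that begins 216 bases before the RefSeq start. Fasn, minus strand of chr11:120824548-120824797, holds 3, between 90 and 59 bases before it, of which 2 overlap.
Insig1: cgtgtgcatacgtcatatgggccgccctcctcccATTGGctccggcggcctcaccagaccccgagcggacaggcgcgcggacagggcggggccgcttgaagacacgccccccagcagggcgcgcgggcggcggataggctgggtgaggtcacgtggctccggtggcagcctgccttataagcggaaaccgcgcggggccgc
Fasn: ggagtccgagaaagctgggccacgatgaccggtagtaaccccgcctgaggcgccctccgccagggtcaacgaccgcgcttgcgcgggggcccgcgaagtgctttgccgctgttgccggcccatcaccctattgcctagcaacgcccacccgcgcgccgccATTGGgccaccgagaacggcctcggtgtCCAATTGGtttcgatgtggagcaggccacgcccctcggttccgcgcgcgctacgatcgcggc
A CCAAT box was found in 13 of the 15 cholesterol synthesis genes that have a window and in 9 of 21 genes of fatty acid and phospholipid synthesis. It occurs in 33.8% of all RefSeq windows of this length, in 35.5% of the 12339 tested genes with a window and in 33.5% of those called lower. The share in the cholesterol list (86.7%) was above these, and that in the fatty acid and phospholipid list (42.9%) was nearer to them. The letters are common in promoters, and a match says nothing about the factor that binds.

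Fatty acid oxidation went the other way in part. Of 23 genes 7 were called higher and 0 lower, though the median log2 fold change was 0.08. Among the members that rose, the uncoupling protein gene Ucp3 rose by 1.8 ± 0.29, the carnitine transferase gene Cpt1a by 0.56 ± 0.13 and the kinase gene Pdk4, which spares glucose, by 0.77 ± 0.18. Hadha, a subunit of the trifunctional beta-oxidation enzyme, was not called (-0.10 ± 0.09, edgeR adjusted p 0.497). Ucp3 was at 2.97, 3.4 and 1.81 CPM in young and 9.28, 7.29 and 12 CPM in aged libraries and was called without each library in turn. Without the second young library it was the only call left in this list, and Cpt1a then had an edgeR adjusted p of 0.0501. With the other libraries left out in turn 3 to 5 were called.

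**Figure D4:**
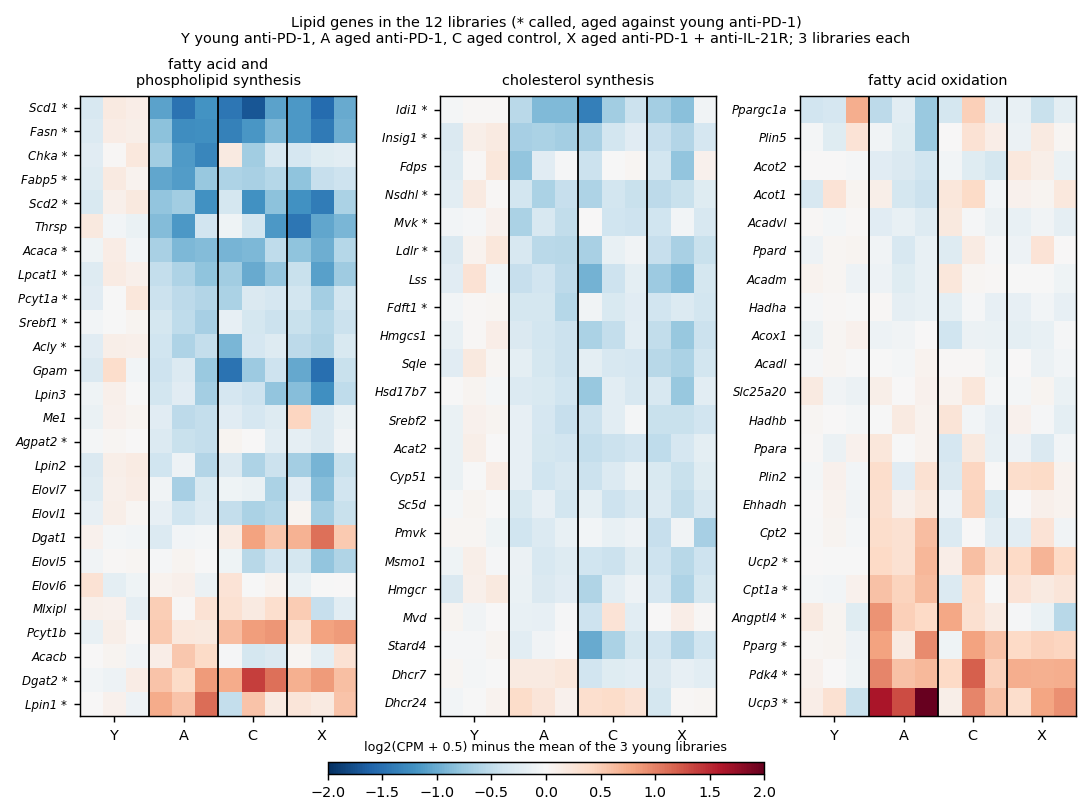
Levels of lipid genes in the 12 libraries. Rows are genes of 3 lists ordered by fold change, columns are libraries in 4 groups of 3, and colour is log2(CPM + 0.5) less the mean of the 3 young libraries (blue lower, red higher); Scd1 and Fasn are blue in all 9 aged libraries, cholesterol genes are pale blue, and Ucp3 is the darkest red row in the aged anti-PD-1 columns.

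Vessel genes did not move as 1 block. In the pericyte list 3 of 12 were called higher and 0 lower (median -0.13): Rgs5, Lamc3 and Abcc9 (0.61 ± 0.19), the last a call lost without the second or the third young or the first or second aged library (highest edgeR adjusted p 0.151). Other pericyte genes did not pass, such as Cox4i2 (-0.34 ± 0.25, edgeR adjusted p 0.401) and Postn (-0.36 ± 0.23, edgeR adjusted p 0.314), and the list's summed level was 328.8 to 373.3 CPM in aged and 349 to 410.3 CPM in young libraries. So 9 of the 12 pericyte genes were not called. Smooth muscle genes were lower in 5 of 11 cases and higher in 0 (median -0.35), among them Actg2 (-0.84 ± 0.19), Cnn1 (-0.67 ± 0.17) and Tagln (-0.54 ± 0.16). The summed level of the list was 919.9 to 1146 CPM in aged and 1089 to 1541 CPM in young libraries. It was 1325 to 1752 CPM in aged control and 1235 to 1391 CPM in combination lungs, so these aged groups were not below the young one. No smooth muscle gene was called lower without the third young or the third aged library, and 1 without the first young or the first aged library. Myocd, the coactivator that drives the contractile genes, was called at a level under 1 CPM in every library (-1.8 ± 0.51) and lost its call whichever library was left out (highest edgeR adjusted p 0.112).

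Among endothelial lists the venous one had the most calls. Of 8 venous genes 4 were higher and 1 lower (median 0.48), with 1 higher call without the third young and 2 without the second young or the first aged library. Slc6a2, the noradrenaline transporter, was at 54.5, 58.1 and 48.3 CPM in young and 128, 124 and 118 CPM in aged libraries and rose by 1.2 ± 0.14 (edgeR adjusted p 0.000311), with the groups far apart. Its level was 64.3 ± 15.6 CPM in aged control and 40.2 ± 1.48 CPM in combination lungs (SD, n = 3). Vwf, the clotting factor stored in endothelium, rose by 0.49 ± 0.12, a call lost without the third young library (edgeR adjusted p 0.0716), while the chemokine scavenger Ackr3 fell by 0.67 ± 0.14, a call lost without the same library (edgeR adjusted p 0.0592). Arterial genes had 1 of 9 higher, the chemokine gene Cxcl12 (0.61 ± 0.11, median of the list 0.08). General capillary genes had 1 of 7 lower, the apelin receptor gene Aplnr (-1.11 ± 0.32), though the median of the list was 0.31. The summed level of that list was 1377 to 1517 CPM in aged and 1056 to 1311 CPM in young libraries. Capillary aerocyte genes had 1 of 8 lower, the ligand gene Apln (-0.73 ± 0.18), with a median of 0.06. The shares called in the arterial, general capillary and aerocyte lists were 11.1%, 14.3% and 12.5%, below the 15.3% of all genes tested. Aplnr held its call in 1 of the 6 fits that left out a library (highest edgeR adjusted p 0.125), while Apln lost its call without the third young or the third aged library (highest edgeR adjusted p 0.0949). Pecam1, found on all endothelium, was not called (0.39 ± 0.14, edgeR adjusted p 0.0751).

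Several signalling genes that endothelium uses rose. The Notch list had 4 of 16 members higher and 0 lower, with a median log2 fold change of 0.39 (0.32 to 0.42 whichever library was left out). Notch1, a receptor that sets endothelial and epithelial fate, was at 67.2, 66.4 and 62.7 CPM in young and 122, 113 and 97.8 CPM in aged libraries and rose by 0.76 ± 0.11 (edgeR adjusted p 0.00118), and the ligand gene Jag2 rose by 0.53 ± 0.12. Those 2 calls held whichever library was omitted, and were the only 2 of the list without the second young, the third young or the first aged one, while the calls of Dll1 (0.85 ± 0.23) and Notch4 (0.94 ± 0.26) each held in 1 of the 6 such fits. The target gene Hes1 did not pass the test (-0.08 ± 0.13, edgeR adjusted p 0.735). In the TGF-beta and BMP list 4 of 33 were higher and 5 lower (median 0.01, below 0 without the second young or the first or the third aged library). Id1, a direct target of BMP signalling, was at 64.3, 57 and 51.8 CPM in young and 221, 127 and 196 CPM in aged libraries and rose by 1.65 ± 0.21 (edgeR adjusted p 0.000693). The lowest aged value of Id1 was the second library, still well above the young values, and Id1 was called with the clock score as a covariate (2.41, edgeR adjusted p 0.00151). The ligand genes Bmp2 and Tgfb2 fell by 1.02 ± 0.18 and 0.86 ± 0.16, both called without each library. Counts in this list ranged from 1 to 4 higher and 2 to 5 lower in those fits, with 1 higher without the first or the third aged library and 2 lower when leaving out the second or the third young or the third aged library.

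In the Wnt list 2 of 43 members rose and 4 fell, 14% of the list against 15.3% of all genes tested (median -0.20, 2 higher in each fit that left out a library, with 2 lower when the second or the third one of the young or of the aged libraries was omitted). The receptor gene Fzd4, active in vessels, was at 65.2, 64.2 and 52.4 CPM in young and 126, 143 and 114 CPM in aged libraries and rose by 1.07 ± 0.19, as did the pathway inhibitor gene Nkd2 (1.3 ± 0.25). The receptor genes Fzd2 and Fzd5 fell by 1.36 ± 0.23 and 1.25 ± 0.25. In the FGF list 3 of 20 were higher and 5 lower (median -0.03, turning to 0.012 with library totals alone, to 0.0021 with scaling that leaves out immunoglobulin, haemoglobin and mitochondrial genes and to 0.023 without the third aged library, with 3 lower when the second young, the third young or the third aged library was omitted). The feedback inhibitor genes Dusp6 and Spry4 rose by 1.0 ± 0.14 and 1.04 ± 0.21. Etv5, a transcription factor that FGF signalling maintains in type 2 cells, fell by 0.88 ± 0.17, and the ligand gene Fgf18 fell by 1.37 ± 0.24. These 8 genes of the Wnt and FGF lists were each called whichever library was left out. Hedgehog genes had 2 of 13 lower and 0 higher (median -0.24), a share of 15.4% that is near the background of all genes tested. The 2 were the receptor Smo (-0.69 ± 0.18) and the target Gli1 (-0.79 ± 0.25), with neither called in 4 of the 6 fits that left out a library. In the retinoid list Aldh1a2, which makes retinoic acid, was the 1 of 17 genes called (-1.14 ± 0.30, median of the list -0.26), and it was lost without the first or second young or the second or the third aged library (highest edgeR adjusted p 0.105).

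Transcription factor families split by member. Of 29 forkhead genes 2 were higher and 4 lower (median -0.20, and 1 higher and 2 lower without the third young library). Foxf1, a factor of lung mesenchyme and endothelium, was at 144, 132 and 114 CPM in young and 251, 226 and 210.3 CPM in aged libraries and rose by 0.82 ± 0.15, while Foxo6 fell by 1.91 ± 0.27 and Foxp2, expressed in lung epithelium, by 0.79 ± 0.17. Of 13 SOX genes 2 were higher and 2 lower (median -0.10, which was 0.084 without the third young library). The endothelial factor gene Sox7 and Sox13 rose by 0.69 ± 0.13 and 0.63 ± 0.14, and Sox4 fell by 0.79 ± 0.16. Sox9, a factor of airway progenitors, was low throughout (1.69, 1.45 and 2.11 CPM in young, 0.588, 0.804 and 0.948 CPM in aged libraries) and fell by 1.17 ± 0.30, a call lost without the third young or first aged library (highest edgeR adjusted p 0.094). The flow-induced factor gene Klf2 led the 2 higher and 2 lower of 14 KLF genes (median 0.15): it was at 411, 367 and 265 CPM in young and 902, 516 and 696 CPM in aged libraries and rose by 1.02 ± 0.23, a call lost without the third young library (edgeR adjusted p 0.052), where 0 KLF genes were called. Of 15 Hox cluster genes 3 were higher and 0 lower (median 0.25), Hoxa3, Hoxa5 and Hoxa7, each called in at most 2 of the 6 fits that left out a library.

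**Figure D5:**
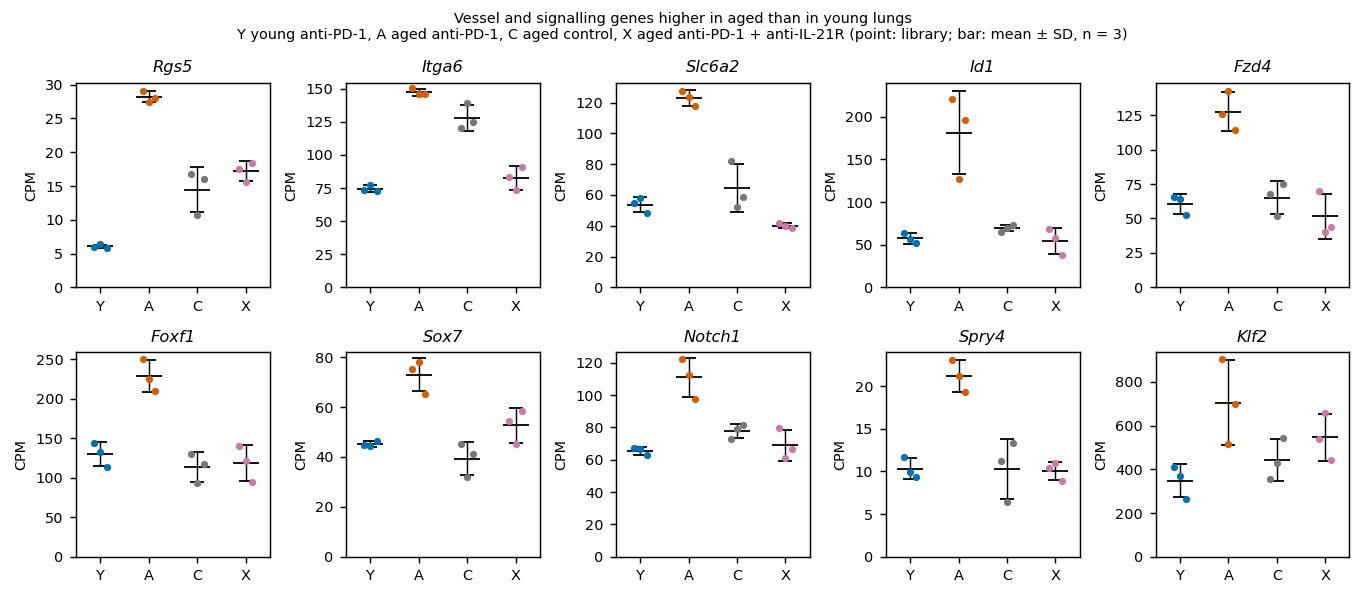
Levels of 10 vessel and signalling genes that were higher in aged than in young lungs under anti-PD-1. Each panel gives CPM (y axis, from 0) of 1 gene in the 4 groups (x axis), points are libraries and bars the mean ± SD of 3; in all 10 panels the aged anti-PD-1 points lie above the young ones, and the aged control means of Id1, Fzd4, Foxf1, Sox7, Notch1 and Spry4 lie close to the young means.

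The levels in the other aged groups divide these genes. Id1 was at 69.5 ± 3.9 CPM in aged control and 54.6 ± 15.4 CPM in combination lungs (SD, n = 3), Fzd4 at 65 ± 11.8 and 51.5 ± 16.3 CPM, Foxf1 at 114 ± 18.8 and 119 ± 22.6 CPM, and Sox7 at 39.4 ± 6.76 and 52.7 ± 6.9 CPM, all near their young levels. Mean Pecam1, not called, was 552 CPM in aged and 421 CPM in young anti-PD-1 lungs. It was 333 CPM in aged control and 314 CPM in combination lungs. General capillary genes summed to 689.7 to 1186 CPM and 704.4 to 1042 CPM there. Mean Cldn5 was 343 and 354 CPM in aged and young anti-PD-1, 326 CPM in aged control and 288 CPM in combination lungs. The part of endothelial content in the rises of Id1, Fzd4, Foxf1 and Sox7 was not tested. Itga6 was at 128 ± 9.65 CPM in aged control lungs, nearer the aged anti-PD-1 level, but at 82.5 ± 8.97 CPM in combination lungs, nearer the young level. Among the genes that fell, Ddc, which makes dopamine and serotonin from their precursors, was at 5.16, 5.6 and 6.62 CPM in young, 1.39, 1.26 and 0.848 CPM in aged anti-PD-1 and 1.57 ± 0.447 CPM in aged control lungs. For Veph1 the levels were 1.92, 3.0 and 3.33 CPM in young, 0.336, 0.251 and 0.249 CPM in aged anti-PD-1 and 0.341 ± 0.0216 CPM in aged control lungs. Comparisons of these groups with the young one would share its 3 libraries, so no test was made across them.

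Clotting genes had calls in both directions, 7 of 28 higher and 4 lower (median 0.19). F5, coagulation factor V, was at 17.1, 26.6 and 23.5 CPM in young and 75.3, 65.2 and 66.2 CPM in aged libraries and rose by 1.62 ± 0.20. F2rl2, a thrombin receptor subunit, rose by 1.28 ± 0.16, and F13a1, which cross-links fibrin, by 1.05 ± 0.13. F3, tissue factor, which starts clotting, was at 148, 172 and 254 CPM in young and 88.3, 88.7 and 60.6 CPM in aged libraries and fell by 1.27 ± 0.19, against 179 ± 5.41 CPM in aged control lungs (SD, n = 3). These 4 were called without each library in turn, when the list had 3 to 6 higher and 2 to 4 lower, with 3 higher without the third young and 4 without the third aged, and 2 lower without either of these, the second young or the second aged library. Platelet markers rose beside them: all 5 were called higher (median 1.77), and also in each fit that left out a library, with summed levels of 876.9 to 954 CPM in aged anti-PD-1, 167.1 to 331.3 CPM in young and 1275 to 1675 CPM in aged control lungs. Genes of the platelet lineage that the rule named by p were Fermt3, the integrin activator kindlin-3 (1.35 ± 0.14), Rgs18 (1.89 ± 0.20), the sphingosine-1-phosphate exporter Mfsd2b (1.84 ± 0.20) and Mmrn1, multimerin (1.14 ± 0.13). The part of platelets in the rise of F5, F2rl2 and F13a1 was not tested. Of 31 genes matched as integrins, a pattern that also takes integrin-binding proteins, 5 were higher and 2 lower (median 0.28), with Itga6, the platelet chains Itga2b (2.11 ± 0.28) and Itgb3 (1.08 ± 0.18) and the leukocyte chain Itgad (1.52 ± 0.31) leading. Leaving out 1 library gave 4 to 6 higher and 1 to 3 lower, with 1 lower without the third young or the third aged library. Under the other alternatives the higher calls ranged from 1 with the clock score as a covariate to 13 in the fit of only the 6 libraries compared, and the lower ones from 0 to 4. Itgb1, the shared beta chain, was not called (-0.08 ± 0.12, edgeR adjusted p 0.699).

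Growth genes fell in small numbers. In the IGF axis, the insulin-like growth factors with their receptors and binding proteins, 4 of 17 were lower and 0 higher, all of them binding proteins, while the median was 0.05 and turned to -0.0074 without the second young and -0.080 without the first aged library. Igfbp6, which binds IGF2, was at 479, 414 and 449.6 CPM in young and 218, 226 and 162 CPM in aged libraries and fell by 1.15 ± 0.16 (edgeR adjusted p 0.000751). Igfbp3, Igfbp5 and Igfbp7 fell by 0.85 ± 0.21, 0.90 ± 0.27 and 0.74 ± 0.18, calls that were each lost in 2 or more of the fits that left out a library, and without the third aged library only 1 of the 4 was called. Of 14 imprinted growth genes 3 were lower and 0 higher (median -0.12). Peg3 fell by 1.14 ± 0.20 and Ndn, necdin, by 0.84 ± 0.15, both called without each library, and the cell cycle inhibitor Cdkn1c by 0.37 ± 0.11, a call lost whichever library was left out (highest edgeR adjusted p 0.168). Gdnf, a neurotrophic factor outside these lists, was at 15.9, 27.5 and 30.4 CPM in young and 7.31, 5.73 and 5.58 CPM in aged libraries and fell by 1.98 ± 0.27. None of 26 proliferation genes was called by edgeR, DESeq2 or limma-voom (median 0.08), and 0 had an unadjusted edgeR p under 0.05. The replication clamp Pcna was at 109, 108 and 112 CPM in young and 107, 104 and 112 CPM in aged libraries. Of 22 p53 targets 3 were higher and 1 lower (median 0.16), none of them called in every fit that left out a library, and Cdkn1a, which p53 induces to halt the cell cycle, was not called (-0.06 ± 0.18, edgeR adjusted p 0.854).

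Genes that answer amino acid shortage and stress in the endoplasmic reticulum fell in part. Of 23 genes of that list 4 were lower and 1 higher (lower count 1 without the third young or the third aged and 2 without the first or the second young library, median 0.03, turning to -0.026 without the first young and -0.080 without the first aged library). Chac1, which degrades glutathione, was at 7.35, 7.61 and 9.65 CPM in young and 2.73, 2.61 and 2.34 CPM in aged libraries and fell by 1.67 ± 0.18 (edgeR adjusted p 0.000311). All aged values lay far below the young ones, while aged control lungs had 6.94 ± 0.21 CPM and combination lungs 7.8 ± 1.29 CPM (SD, n = 3). Atf4, the transcription factor of this response, fell by 0.53 ± 0.12, a call lost without the third young or the third aged library (highest edgeR adjusted p 0.0986). Its targets Trib3 (-0.84 ± 0.25) and Asns (-0.37 ± 0.12, named after its value was seen) were called, but not in any fit that left out a library for Trib3 (highest edgeR adjusted p 0.146) and in 1 of 6 for Asns. The chaperone Hspa5 (0.16 ± 0.17, edgeR adjusted p 0.548) and Atf3 (0.28 ± 0.26, edgeR adjusted p 0.504) were not called, and Edem1, which sends misfolded protein to degradation, rose by 0.79 ± 0.13.

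The bases before Chac1 (RefSeq, GRCm38.p6, plus strand of chr2:119350992-119351228) are shown next. The match to TGATGNAA, letters of the element through which ATF4 acts, is in capitals. The match lies on the opposite strand and begins 193 bases before the RefSeq start.
Chac1: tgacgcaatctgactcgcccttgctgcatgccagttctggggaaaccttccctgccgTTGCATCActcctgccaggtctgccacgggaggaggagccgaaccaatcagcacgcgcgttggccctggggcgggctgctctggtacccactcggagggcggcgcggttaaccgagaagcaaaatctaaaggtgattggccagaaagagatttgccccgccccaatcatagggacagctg
These letters were found, on either strand, in 4 of the 21 list members with a window (Asns, Atf3, Chac1 and Herpud1), and in 3.45% of all RefSeq windows of 250 bases. Among genes with a window they occur in 3.06% of those called lower and 2.16% of those called higher, against 2.03% of the 12339 tested. Of those 4 genes Chac1 and Asns were called, Asns in only 1 of the 6 fits that left out a library. A match is a description of the sequence and not evidence that ATF4 acts there.

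Few genes of other protective systems were called. Of 24 antioxidant genes 2 were lower and 0 higher (median -0.13), of which Osgin1, an oxidative stress target, was at 76.6, 108 and 134 CPM in young and 51.6, 63.9 and 42.1 CPM in aged libraries and fell by 1.01 ± 0.20, against 119 ± 12.5 CPM in aged control lungs (SD, n = 3). The other, Gclc, which makes glutathione, fell by 0.40 ± 0.11, a call that library totals alone removed, as did omitting the second or the third of the young or of the aged libraries (edgeR adjusted p up to 0.142). Xenobiotic metabolism had 1 of 30 genes higher and 2 lower (median -0.06, and 0 called when the second young, the third young or the second aged library was omitted), and the airway enzymes Cyp2f2 (-0.25 ± 0.17, edgeR adjusted p 0.341) and Cbr2 (-0.16 ± 0.16, edgeR adjusted p 0.555) were not called. Bpifb1, a secreted airway defence protein outside these lists, was at 258, 189.6 and 222 CPM in young and 46.4, 70.3 and 56.2 CPM in aged libraries and fell by 1.95 ± 0.37.

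Few genes of large housekeeping families were called, set against 15.3% of all genes. Of 85 cytosolic ribosomal protein genes 2 (2.35%) were called, both lower, of 80 nuclear genes of the respiratory chain 3 (3.75%), all lower, and of 47 proteasome genes 1 (2.13%), lower. Their medians were all below 0, at -0.19, -0.20 and -0.08, and stayed below 0 under each scaling tried and whichever library was left out. Of the 6 called genes none held without each library. The respiratory chain count is the one most sensitive to the fit: 24 were lower with only the 6 libraries compared and 8 with DESeq2. An unadjusted edgeR p under 0.05 was found for 33 of these 80 genes, 32 of them lower, against 5478 of 18556 genes tested. For ribosomal proteins it was found for 9 of 85 genes, all lower, and for the proteasome for 8 of 47, 6 of them lower. Zinc finger genes of the Zfp series were called in 6.38% of 329 cases (12 higher and 9 lower, median 0.09), with no higher call without the third young or the third aged library. Zfp365 fell by 1.08 ± 0.15 and was called without each library. Solute carriers were called in 15.8% of 260 cases, with 22 higher and 19 lower, and 10 higher and 7 lower without the third young or 13 and 6 without the third aged library. They included the glucose transporter gene Slc2a3 (1.14 ± 0.14), the mitochondrial iron importer gene Slc25a37 (0.85 ± 0.11) and Slc37a2 (1.81 ± 0.25). None of 19 tested beta protocadherin genes was called by edgeR with all 12 libraries, DESeq2 or limma-voom, and at most 1, as higher, under any other alternative. An unadjusted edgeR p under 0.05 was found for 3 of them, all higher, a smaller share than over all genes tested.

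A few genes with small p-values fall outside the lists. H1f0, the linker histone of resting cells, was at 189, 224 and 266 CPM in young and 102, 117 and 104 CPM in aged libraries and fell by 1.07 ± 0.12. The X-linked genes Bex4 and Bex1 fell by 1.23 ± 0.13 and 2.35 ± 0.30, with no overlap between the groups. Ppp1r14c, an inhibitor of protein phosphatase 1, fell by 1.41 ± 0.14, from 74.4, 104 and 107 CPM to 38.3, 36.9 and 32.3 CPM. Tmem163, a zinc transporter, fell by 1.01 ± 0.12. All 5 were called without each library. Adipocyte genes had 0 of 7 called by edgeR or limma-voom and 1 higher by DESeq2. An unadjusted edgeR p under 0.05 was found for 2 of the 7, near the share over all genes tested. In the edgeR fit of only the 6 libraries compared, 1 was higher and 2 lower. Skeletal muscle genes had 2 of 6 called, both lower, with 1 of the 6 called in each fit that left out a library and with the replicate block, and Myh4 at 0 counts in all 12 libraries.

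Libraries of aged lungs were a little more spread out than those of young lungs under the same antibody, a difference that was not tested. Over the 15018 genes whose average log2 CPM was 1 or more, the median SD of log2 CPM was 0.145 in the 3 aged and 0.127 in the 3 young libraries, and 56.6% of those genes had the larger SD in the aged group. The aged control and combination groups had medians of 0.186 and 0.174. Between libraries of a group the chi-square per degree of freedom ran from 9.61 to 48.1, beyond counting noise, so no 2 libraries were counted as 1.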

How the data were processed

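RNA from whole lung was sequenced from poly(A) libraries made with a directional kit, per the labels' protocols. The authors deposited raw read counts per gene in 1 table of 12 libraries. The submitters' processing notes name bcl2fastq 1.8.4, Trimmomatic, HISAT2, featureCounts 1.6.3 and mm10, while the strand setting and the annotation release are not given in the sources used here, so reads of overlapping or antisense genes may not be separated. Members and lists were chosen with earlier results of these data known.

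Counts were analysed with edgeR 4.0.16 and limma 3.58.1 in R 4.3.3. Genes were kept with a minimum count of 10 in enough libraries and a total of at least 15, libraries were scaled by TMM, and a robust quasi-likelihood model with 4 group means was fitted to all 12 libraries, so that the spread was estimated with 8 residual degrees of freedom. The common biological coefficient of variation was 0.156. CPM values use the TMM-scaled totals, and p-values were adjusted over all 18556 genes by Benjamini and Hochberg. The scripts were tested on simulated data.

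Named genes were a selection from the called genes with the largest changes (12 in each direction) or the smallest p-values (10 in each direction) and, in each list, up to 4 called genes with the smallest p and 2 uncalled genes with the highest level. Lists are described by counts and medians, with no test of the list. Replicate numbers were shared between groups, but same-numbered libraries did not deviate together (correlations -0.0780, -0.0369 and -0.00535 over genes), so they were not treated as pairs. Alternatives were other scalings, DESeq2 1.42.0, limma-voom, other filters, only the 6 libraries compared, the replicate number as a block and leaving out each library. A fit with the clock gene score as a covariate was added after seeing the data. Promoter windows came from RefSeq tables of GRCm38.p6 (250 bases before and 50 after each start). Motif counts used the 250 bases before the start. Some genes are not reported here by name or drawn in the heat map, though the list counts include them.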

Additional observations from a re-analysis of the deposited data

How the results depend on the processing

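Leaving out 1 of the 6 libraries lowered the number of called genes from 2830 to between 1160 and 2237, with 711 to 1159 higher and 449 to 1084 lower. The fewest calls came without the third young library (1160), then without the third aged (1252) and the second young library (1404), and without the second aged library 776 genes were lower. With the clock gene score as a covariate, chosen after seeing the data, 52 genes were called, 47 higher and 5 lower. The score does not overlap between the groups, so it and the groups cannot be told apart fully in 3 libraries each. Under the other alternatives the count lay between 2447 (library totals alone) and 3742 (only the 6 libraries compared), within 1.5 times the reported count. No shared call changed sign under any alternative, which was unlikely from the start as the fits use the same or nearly the same libraries. Library totals alone gave 62.0% higher among the calls, against 53.1%. The replicate block called 2493 genes, 1375 higher and 1118 lower, and as the numbers do not pair the libraries this is given only for completeness.

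Alternatives were computed for 152 genes named in the text, of which 122 were called, 88 of them also in all 6 fits that left out a library. The direction of some uncalled ones turned. Leaving out 1 library gave log2 fold changes of -0.014 to 0.50 for Atf3, -0.36 to 0.095 for Cdkn1a, -0.23 to 0.057 for Cldn5, -0.076 to 0.020 for Eif2s3y, -0.030 to 0.053 for Elovl5, -0.18 to 0.045 for Hes1, -0.094 to 0.33 for Hspa5, -0.059 to 0.014 for Pcna and -0.40 to 0.20 for Pmel. With library totals alone Eif2s3y was at 0.0085 and Pcna at 0.0083, and with scaling that leaves out immunoglobulin, haemoglobin and mitochondrial genes Pcna was at 0.00041. With the clock score Cdkn1a was at 0.63, Cldn5 at 0.32, Col1a2 at 0.091, Elovl1 at 0.071, Hadha at 0.074, Itgb1 at 0.16, Mlana at -0.22 and Pcna at 0.036. The cause was not tested for any of these. With 3 libraries a group, an exact permutation test of 1 gene cannot go below p = 0.10, so calls rest on the spread pooled over genes.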
